A study of Homo sapiens with 17 samples.

Results

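The regions described here are those where CREB1 was found in 2 related prostate cancer cell lines and FOXA1 in 1 of them. They are the CREB1 peaks of LNCaP-abl cells that share 1 bp or more with a CREB1 peak of LNCaP cells and 1 bp or more with a FOXA1 peak of LNCaP-abl cells. There were 7774 such regions, called shared sites with FOXA1 below, among 27629 CREB1 peaks of LNCaP-abl and 128862 peaks in the 3 lists together. The sites were chosen by the positions of the called peaks in these 3 lists, so every count, width and score drawn from those lists is a description and carries no test. There was 1 list per condition, and peaks of 1 list are not replicates.

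CREB1 is a leucine-zipper transcription factor that binds the cyclic-AMP response element, often in CpG-rich promoters, and recruits the co-activators CREBBP and EP300 when it is phosphorylated. FOXA1 is a forkhead pioneer factor that can bind its motif on closed chromatin, mostly at distal enhancers, and in prostate cells it opens sites used by the androgen receptor. A region bound by both factors can therefore be a promoter, an enhancer or a stretch in which separate sites lie side by side. Which of these a given region was could not be read here, because no gene annotation or sequence of the build of the peaks (hg19) was used.

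LNCaP-abl (abl below) is an androgen-independent subline of LNCaP, a prostate cancer line that depends on androgen. Per the labels, abl cells were grown in 10% charcoal-stripped serum and used at passages 62 to 64, and LNCaP cells were grown in 10% serum and used at passages 32 to 34. The peak lists come from chromatin immunoprecipitation sequencing (ChIP-seq) with an antibody against FOXA1 in abl, against CREB1 in abl and against CREB1 in LNCaP, and the labels name no transfection for them. RNA was sequenced after 3 days with 40 nM of siRNA in 5% charcoal-stripped serum, and the siControl libraries of both lines (2 each) are used below. Of the 17 samples of the series, 8 ChIP-seq samples of abl made after siControl, siCREB1 or siFoxA1 were not analysed here. The series holds no FOXA1 ChIP-seq sample of LNCaP.

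Both factors were expressed in both lines. In RNA read counts scaled to library size (CPM), CREB1 stood at 79.1 and 78.4 in the abl siControl libraries, against 81.1 and 85.3 in the LNCaP siControl libraries. FOXA1 stood at 558.4 and 495.8 CPM in abl, against 800.3 and 695.3 CPM in LNCaP. The log2 change of CREB1, abl over LNCaP, was -0.07 ± 0.09 and did not pass (SE, edgeR quasi-likelihood test, adjusted p = 0.541). FOXA1 was lower in abl by 0.49 ± 0.08 on the log2 scale, a value of -0.49 (edgeR adjusted p = 0.000129), in a comparison in which 63.6% of 15550 tested genes passed. Gene-assigned reads were 37314039 and 9092597 in the abl siControl libraries and 27555950 and 15200856 in the LNCaP ones. Of 8 luminal prostate markers, FOXA1 among them, 6 reached at least 10 CPM in all 4 libraries. KLK3, which encodes prostate-specific antigen, was at 0.110 to 0.362 CPM in abl against 70.7 to 73.9 CPM in LNCaP, and KLK2 stayed under 2 CPM in both lines. The basal markers TP63, KRT5 and KRT14 were at most 0.192 CPM in every library. Of 3 neuroendocrine markers CHGA was at most 0.0836 CPM, SYP was under 2 CPM, and ENO2 was at 49.3 to 54.9 CPM in abl against 104.9 to 105.4 CPM in LNCaP. Of 3 fibroblast markers COL1A1 was at 8.39 to 10.5 CPM in abl against 53.5 to 61.6 CPM in LNCaP, while COL1A2 was at 0 in all 4 libraries and DCN at most at 0.320 CPM. The highest of 4 blood markers was CSF3R, at 0.219 to 2.43 CPM in abl and 0 to 2.75 CPM in LNCaP. Whether these marker levels have a part in the FOXA1 difference was not tested. The p-values measure only the spread between libraries, which may be technical.

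The shared sites with FOXA1 made up 28.1% of the abl CREB1 list (95% Wilson interval 27.6 to 28.7%, which like all intervals below covers counting error only). Of the 18433 CREB1 peaks that abl shared with LNCaP, 42.2% had a FOXA1 peak (41.5 to 42.9%). With the FOXA1 list cut to the size of the abl CREB1 list, the sites numbered 3819 and this share was 20.7%. The other abl CREB1 peaks fell into 10659 shared sites without FOXA1, 5407 abl-only peaks with FOXA1 and 3789 abl-only peaks without it. FOXA1 was thus present at 58.8% of the CREB1 peaks seen in abl alone (57.8 to 59.8%). It was present at 43.1% of the 3391 CREB1 peaks seen only in LNCaP (41.4 to 44.7%), although the FOXA1 list is that of abl. Seen from the other lists, the sites held 7854 of 21991 LNCaP CREB1 peaks (35.7%) and 7867 of 79242 FOXA1 peaks (9.93%). Nearly every site paired 1 peak with 1 peak. A single FOXA1 peak lay on 7657 sites and 2 FOXA1 peaks on the other 117, and in 104 of those 117 the FOXA1 peaks lay on opposite sides of the CREB1 centre.

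The authors' score of each peak started at 80 in the abl CREB1 list and at 80.01 in the FOXA1 and LNCaP CREB1 lists. It reached 3233.1 in both CREB1 lists and 3113.7 in the FOXA1 list. Raw scores describe single peaks and classes of 1 list, and scores of different lists are not on a common scale. Between lists they are set side by side as percentiles within each list, where 100 is the highest score. The shared sites with FOXA1 had a median abl CREB1 score of 266.7, which is percentile 59.1, with a middle 50% of sites between percentiles 39.1 and 79.5. Shared sites without FOXA1 stood higher, at a median score of 425.0 and percentile 70.5. Both classes of abl-only peaks had a median score of 110.9 and percentile 22.2, so that a CREB1 peak seen in both lines usually scored well above one seen in abl alone. The classes rest on passing the minimum score in both CREB1 lists, so this order is not independent of the rule. In the LNCaP list the same order held, with a median percentile of 48.8 at shared sites with FOXA1 and 63.4 at shared sites without it. The FOXA1 peaks on the shared sites had a median percentile of 64.1 in their own list, against 77.0 at the abl-only CREB1 peaks with FOXA1.

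CREB1 peaks at the shared sites with FOXA1 were intermediate in width. Their median width was 678 bp (order-statistic 95% interval 672 to 684 bp), against 777 bp at shared sites without FOXA1 (768 to 785 bp), 536 bp at abl-only peaks with FOXA1 and 504 bp at abl-only peaks without it. Their 90th percentile was 1323 bp, the same as at shared sites without FOXA1, so the difference lay in the middle of the distribution. The LNCaP CREB1 peaks at the sites had a median width of 597.5 bp and the FOXA1 peaks one of 689 bp.

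FOXA1 overlap varied with the score of the CREB1 peak. The abl CREB1 list was cut into 10 bands of equal size by score, with band 1 the weakest. The share of shared CREB1 peaks with a FOXA1 peak was 53.3% in band 1, 55.2% in band 2, 55.0% in band 3 and 55.5% in band 4. It was 52.6% in band 5, 47.0% in band 6, 38.8% in band 7, 33.0% in band 8, 32.6% in band 9 and 36.5% in band 10. The intervals of bands 1 to 5 (49.3 to 58.7% between them) and of bands 7 to 10 (30.8 to 40.7%) did not overlap. The share was therefore flat among the weaker shared peaks, dropped across the middle of the list and was slightly higher again in the strongest band.

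Because abl-only peaks crowd into the weak bands, the comparison with them was also read band by band. Of the abl CREB1 peaks, 21.3% were shared with LNCaP in band 1, 64.6% in band 5 and 99.8% in band 10. In band 1 FOXA1 was present at 53.3% of shared peaks against 56.8% of abl-only peaks, and in band 5 at 52.6% against 62.2%. In band 7 the values were 38.8% for shared peaks (36.9 to 40.7%) and 41.4% for abl-only peaks (34.3 to 48.8%). Within a band, then, the share of abl-only peaks exceeded that of shared peaks by 2.60 to 9.57 percentage points in bands 1 to 7, against 16.6 points over the whole list. Bands 8 to 10 held only 57, 11 and 5 abl-only peaks, and there the difference was negative.

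**Figure D1:**
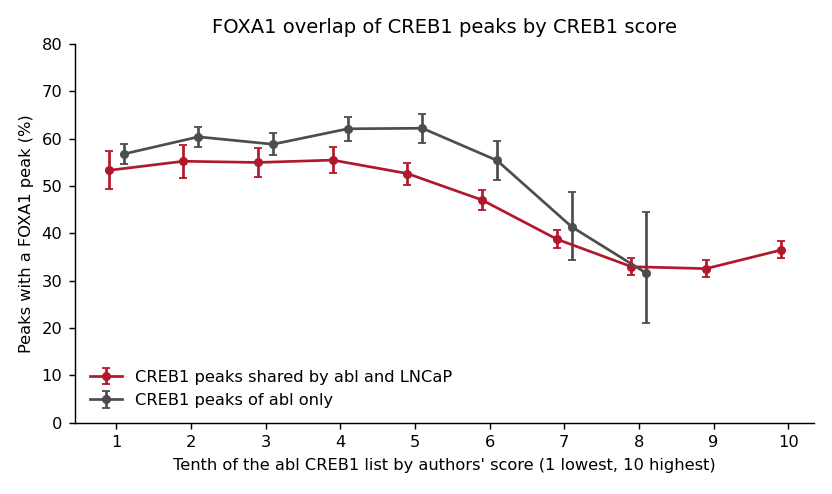
Share of CREB1 peaks with a FOXA1 peak (percent, y axis) in each of 10 bands of the abl CREB1 score (x axis), for peaks shared by abl and LNCaP and for peaks of abl only, with 95% Wilson intervals. Shared peaks stay between 52.6% and 55.5% in bands 1 to 5 and between 32.6% and 38.8% in bands 7 to 10, and bands with under 20 abl-only peaks are not drawn for that class.

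The CREB1 scores of the cell lines went together at these sites, whereas CREB1 and FOXA1 scores ran in opposite directions. Over the 7774 sites, the Spearman correlation between the abl and LNCaP CREB1 scores was 0.86, against 0.91 over the 10659 shared sites without FOXA1. The correlation between the abl CREB1 and FOXA1 scores over the 7774 sites was -0.29. The LNCaP CREB1 score had a Spearman correlation of -0.30 with the abl FOXA1 score. This value is not independent of the -0.29, because the CREB1 scores of both lines went together over the same sites. These are correlations over sites, given with no p, and all sites had to pass the callers' minimum in all 3 lists. The correlation between the CREB1 and FOXA1 scores was 0.06 over the 5407 abl-only peaks with FOXA1, which cover little of the upper CREB1 range. Over shared sites with FOXA1 it was -0.19 where at least 50% of the CREB1 peak had to be covered and -0.11 with the FOXA1 list cut to the size of the abl CREB1 list.

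The opposition was not a straight line. The median FOXA1 percentile of the sites was 74.5 in CREB1 band 1, 75.7 in band 2, 76.0 in band 3, 78.1 in band 4 and 79.9 in band 5. It was 76.5 in band 6, 69.6 in band 7, 54.7 in band 8, 46.1 in band 9 and 38.5 in band 10. The median LNCaP CREB1 percentile went the other way, at 17.5 in band 1, 31.6 in band 5 and 93.8 in band 10. Sites with the strongest CREB1 peaks thus paired with FOXA1 peaks below the middle of the FOXA1 list, and sites with weak or middling CREB1 peaks paired with FOXA1 peaks from its upper part. In band 10 the middle 50% of sites had FOXA1 percentiles of 19.0 to 61.5, and in band 5 of 50.2 to 94.0, so the bands overlapped widely.

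**Figure D2:**
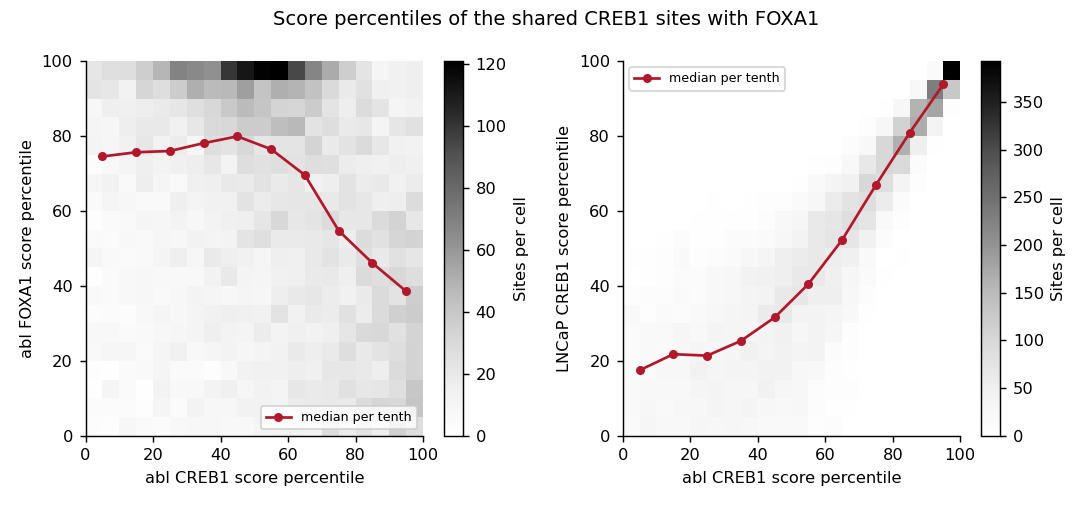
Score percentiles of the 7774 shared CREB1 sites with FOXA1, each within its own list: abl FOXA1 (left, y axis) and LNCaP CREB1 (right, y axis) against abl CREB1 (x axes), with shading for the number of sites per cell and points for the median per band. The FOXA1 median is 79.9 in band 5 and 38.5 in band 10, while the LNCaP CREB1 median is 31.6 and 93.8 in the same bands.

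Sorted by FOXA1 instead, the sites leaned towards the strongest FOXA1 peaks. The top 10% of the FOXA1 list by score was the best partner at 1781 sites, or 22.9% of them, and the bottom 10% at 556 sites, or 7.15%. Sites with a FOXA1 peak of the top band had a median abl CREB1 percentile of 48.9, a median LNCaP CREB1 percentile of 36.7 and a CREB1 width of 627 bp. Sites with a FOXA1 peak of the bottom band had a median abl CREB1 percentile of 74.4, a median LNCaP CREB1 percentile of 67.2 and a CREB1 width of 827.5 bp. Strong FOXA1 peaks thus met CREB1 peaks from about the middle of the abl list and the lower part of the LNCaP list. The FOXA1 peaks at these sites had a median width of 855 bp in the top band and 487 bp in the bottom band. Whether FOXA1 width has a part in the overlap counts, here and in the shares that follow, was not tested.

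Of all FOXA1 peaks in each score band, the share lying on a shared site was 7.45% in the lowest band, 7.65% in band 5, 9.43% in band 8, 12.4% in band 9 and 22.4% in band 10 (21.5 to 23.3%). On abl-only CREB1 peaks the share was 2.83% in the lowest band, 4.10% in band 5 and 19.7% in band 10. Shared sites thus took a near-constant 7.31 to 8.66% of the FOXA1 peaks in bands 1 to 7, where abl-only peaks took 2.83 to 6.56%. FOXA1 peaks on shared sites had a median percentile of 63.2, against 76.5 for the 5379 FOXA1 peaks on other abl CREB1 peaks and 46.8 for the 65996 FOXA1 peaks that met no abl CREB1 peak.

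**Figure D3:**
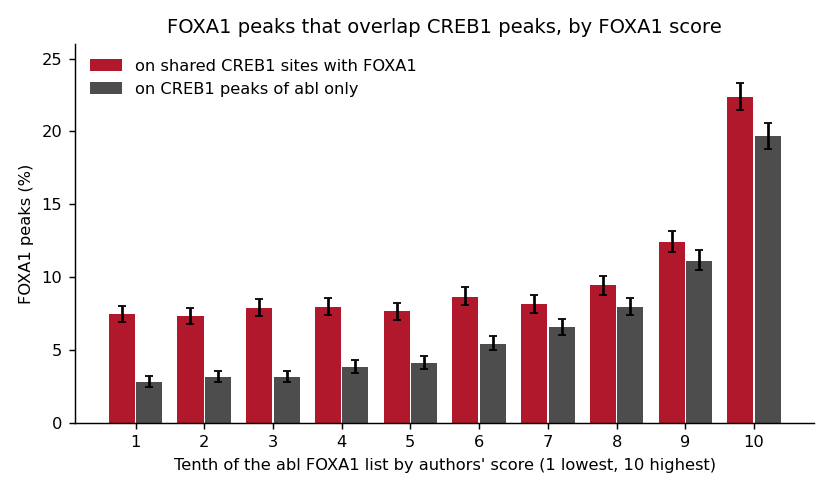
Share of FOXA1 peaks (percent, y axis) that overlap shared CREB1 sites or abl-only CREB1 peaks, in 10 bands of the FOXA1 score (x axis), with 95% Wilson intervals. On shared sites the bars run from 7.31% to 9.43% in bands 1 to 8 and reach 22.4% in band 10, and on abl-only peaks they run from 2.83% in band 1 to 19.7% in band 10.

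The extremes of both scores give the same picture in counts. Sites in the top 25% of the sites by CREB1 score and the bottom 25% by FOXA1 score numbered 760 (9.78% of the sites), and those with low CREB1 and high FOXA1 numbered 647 (8.32%). Sites high in both numbered 161 (2.07%), and sites low in both 353 (4.54%). The high-CREB1, low-FOXA1 sites had CREB1 peaks of 1076 bp and FOXA1 peaks of 556 bp at the median, and the FOXA1 peak covered 47.2% of the CREB1 peak. The low-CREB1, high-FOXA1 sites had CREB1 peaks of 542 bp inside or along FOXA1 peaks of 834 bp, with a median coverage of 100%.

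Examples of each kind were picked after the values were seen, as the 3 sites of each kind whose CREB1 percentiles in both lines contrasted most with the FOXA1 percentile. With high CREB1 and low FOXA1, chr17:1619151-1621190 scored 2443.3 for CREB1 in abl and 2620.0 in LNCaP, against 81.9 for FOXA1, and its FOXA1 centre lay 702.5 bp from the CREB1 centre. At chr11:808946-810338 the scores were 2935.3 in abl, 2721.2 in LNCaP and 83.0 for FOXA1, with centres 303 bp apart. At chr12:54120966-54122024 they were 2633.7 in abl, 2311.4 in LNCaP and 82.1 for FOXA1, with centres 26.5 bp apart. The FOXA1 peaks of these sites were 417 to 481 bp wide and stood at percentiles 1.53 to 2.42 of the FOXA1 list, close to its minimum score.

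The opposite kind showed a narrow CREB1 peak within a broad, strong FOXA1 peak. At chr4:120604687-120605113 the FOXA1 score was 1473.9, the CREB1 scores were 82.1 in abl and 80.5 in LNCaP, and the centres lay 18 bp apart. At chr7:156540392-156540760 the FOXA1 score was 1820.2 and the CREB1 scores were 87.2 in abl and 81.1 in LNCaP, with centres 150 bp apart. At chr2:33516339-33516805 the FOXA1 score was 1714.8 and the CREB1 scores were 82.8 in abl and 86.9 in LNCaP, with centres 2 bp apart. All 3 CREB1 peaks were 369 to 467 bp wide and lay wholly inside their FOXA1 peaks of 819 to 1017 bp.

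The CREB1 peaks of abl and LNCaP had midpoints close to each other, and the midpoints of the FOXA1 peaks lay farther off. The median distance between the abl and LNCaP CREB1 centres was 34.5 bp, and 85.5% of sites were within 100 bp. The median distance between the abl CREB1 and FOXA1 centres was 86.8 bp, and 54.7% of sites were within 100 bp (53.6 to 55.8%). At abl-only CREB1 peaks with FOXA1 the distance to the FOXA1 centre was 64 bp at the median. The FOXA1 centre lay inside the CREB1 peak at 91.9% of the shared sites. The CREB1 peak lay wholly inside the FOXA1 peak at 2544 sites (32.7%) and held it wholly at 1848 sites (23.8%), and at 3382 sites (43.5%) each reached beyond the other on 1 side.

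At all widths together, the distance between centres varied with the CREB1 score. The FOXA1 centre was within 100 bp at 70.4% of sites in CREB1 band 1 (65.1 to 75.2%), 67.8% in band 5, 43.3% in band 8, 34.8% in band 9 and 34.5% in band 10 (31.6 to 37.5%). The median distance was 56.0 bp in band 1, 61.5 bp in band 5 and 164.8 bp in band 10. Over the same bands the LNCaP CREB1 centre moved far less, at 28.5, 29.5 and 38.5 bp.

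Width also moved with score (Spearman correlation 0.75), and with the distance between centres (Spearman correlation 0.44). Sites of 600 to 800 bp, a range chosen after seeing these values, were therefore compared on their own. Among them the median distance to the FOXA1 centre was 62 bp in the upper 3 CREB1 bands (607 sites) and 73 bp in the lower 5 bands (694 sites). The share within 100 bp was 66.7% in the upper bands (62.9 to 70.4%) and 59.9% in the lower bands (56.3 to 63.5%). In this range the order was thus the opposite of that at all widths together, with intervals that overlapped slightly. The median widths in this range were 710 bp in the upper bands and 646 bp in the lower bands, so the widths were closer but not equal. The median FOXA1 percentile in this range was 51.6 in the upper bands and 85.1 in the lower bands.

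**Figure D4:**
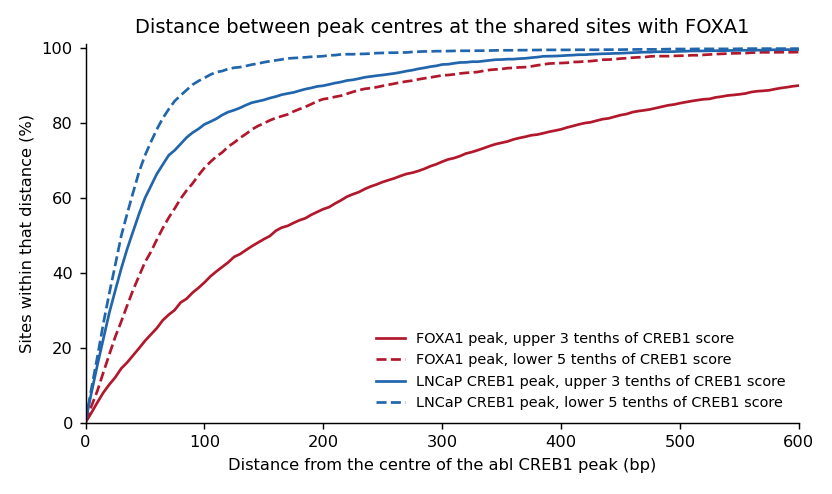
Cumulative share of the shared CREB1 sites with FOXA1 (percent, y axis) whose FOXA1 or LNCaP CREB1 peak centre lies within a given distance of the abl CREB1 centre (bp, x axis), for the upper 3 and the lower 5 bands of abl CREB1 score. LNCaP CREB1 centres lie closer than FOXA1 centres in both, and the FOXA1 curve of the upper bands rises slowest, at all widths together.

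At the edge of the overlap rule, 54 sites shared 1 to 25 bp with FOXA1 and had a median CREB1 score of 521.5, while 36 shared CREB1 peaks missed a FOXA1 peak by 25 bp or less and had a median score of 438.8. For the LNCaP overlap, 4 sites shared 1 to 25 bp, with a median abl score of 126.3, and 4 abl-only peaks with FOXA1 missed by 25 bp or less, with a median of 155.0. A FOXA1 peak covered at least 50% of the CREB1 peak at 82.5% of the sites. Marginal overlaps were few, and those with FOXA1 involved stronger CREB1 peaks than the typical site.

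FOXA1 peaks in the surroundings were about as frequent as at shared sites without FOXA1. A further FOXA1 peak, beyond the overlapping one, had its centre within 10 kb of 48.3% of shared sites with FOXA1 (47.2 to 49.5%), against 48.7% of shared sites without FOXA1, 54.3% of abl-only peaks with FOXA1 and 48.1% of abl-only peaks without it. Another abl CREB1 peak lay within 10 kb of 27.3% of shared sites with FOXA1 (26.3 to 28.3%), against 31.3% of shared sites without FOXA1, 24.3% of abl-only peaks with FOXA1 and 32.3% of abl-only peaks without it. Within the sites a further FOXA1 peak was nearby at 53.2% in CREB1 band 1 and 40.2% in band 10 (37.2 to 43.2%). At shared sites without FOXA1 the same share was 40.7% in band 1 and 49.5% in band 10, so the order over the bands ran the other way there. Shared sites without FOXA1 had their nearest FOXA1 peak at a median of 9704 bp.

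The share of shared CREB1 peaks with FOXA1 varied between chromosomes. It was 54.5% on chromosome 4 (50.9 to 58.1%), 52.9% on chromosome 8 and 49.4% on chromosome 3, against 25.6% on chromosome 19 (23.2 to 28.2%) and 19.0% on the X chromosome (15.3 to 23.3%). Chromosome 19, which is gene-dense, had 0.647 FOXA1 peaks per abl CREB1 peak, the fewest of all chromosomes, and chromosome 4 had 4.59. The X chromosome had 4.62 FOXA1 peaks per abl CREB1 peak, about as many as chromosome 4, and 69 of its 364 shared CREB1 peaks met one. Both counts behind this ratio were lower on X, with 487 abl CREB1 and 2251 FOXA1 peaks, against 1214 and 5577 on chromosome 4. The 300 sites on chromosome 19 had a median abl CREB1 percentile of 80.1 and a median FOXA1 percentile of 45.3. The 121 sites on chromosome 18 had a median abl CREB1 percentile of 45.7 and a median FOXA1 percentile of 69.7, and both chromosomes were picked for these values. On the Y chromosome 20 of 37 shared peaks had FOXA1 (54.1%, 38.4 to 69.0%).

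**Figure D5:**
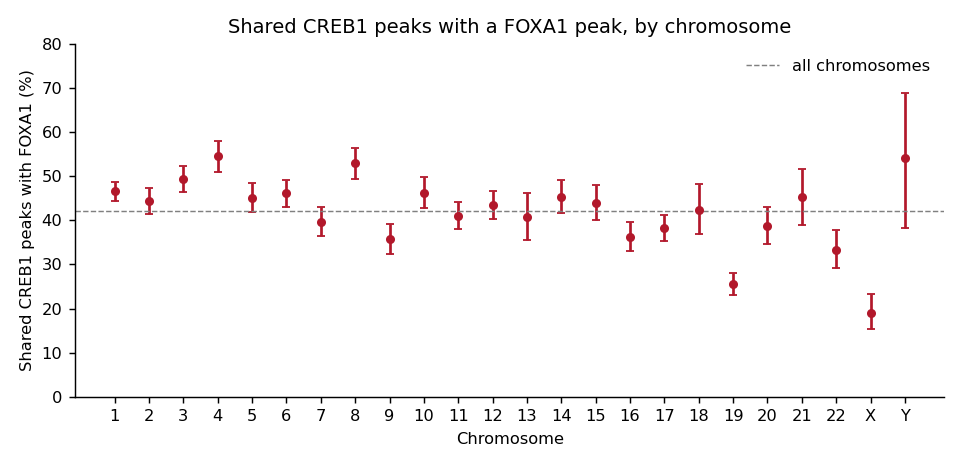
Share of shared CREB1 peaks that have a FOXA1 peak (percent, y axis) on each chromosome (x axis), with 95% Wilson intervals and a dashed line at 42.2% for all chromosomes. Chromosomes 19 and X lie lowest, at 25.6% and 19.0%, and the Y chromosome has a wide interval because it holds 37 shared peaks.

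The 10 sites with the highest mean percentile over the 3 lists were those where CREB1 in both lines and FOXA1 all scored near the top. Ties limit this order, because 43 abl CREB1, 22 LNCaP CREB1 and 6 FOXA1 peaks carry the same score of 3100. The sites chr1:121483920-121485496, chr21:9825391-9827786 and chr6:58776032-58779439 scored 3100 in all 3 lists. Their CREB1 peaks were 1577, 2396 and 3408 bp wide in abl and 1587, 2420 and 3434 bp wide in LNCaP. The FOXA1 peaks there were 1670, 2466 and 3307 bp wide, so the peaks were much alike for both antibodies. Whether the signal at these top sites reflects binding of either factor was not tested. The input control is not given, and no filter for signal unrelated to the antibody was applied. The site chr1:91852546-91853217 scored 3100 for CREB1 in both lines and 2151.1 for FOXA1, and chr1:156186008-156186725 scored 2339.9 in abl, 2819.6 in LNCaP and 2198.1 for FOXA1. These 5 were followed by chr7:61968604-61969736, chr19:7693966-7694978, chr11:85194901-85195345, chr16:46426881-46428170 and chr15:72765755-72767118, with mean percentiles of 97.2 to 99.0. At 9 of the 10 the FOXA1 and abl CREB1 centres lay within 101.5 bp of each other, the exception being chr19:7693966-7694978 at 168 bp.

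The widest CREB1 peak of the sites, at chr1:564398-570369, measured 5972 bp and had almost the same edges in all 3 lists, with widths of 5971 bp for LNCaP CREB1 and 5990 bp for FOXA1. It scored 2353.0 in abl, 3233.1 in LNCaP and 874.3 for FOXA1. The next widest were chr9:68416675-68422476 at 5802 bp and chr21:10697973-10703291 at 5319 bp, with abl CREB1 scores of 182.0 and 167.7. At the chr9 site the LNCaP CREB1 and FOXA1 peaks were 5819 and 5792 bp wide. Whether peaks this wide reflect binding of either factor was not tested. In all, 122 of the 7774 sites had an abl CREB1 peak wider than 2000 bp. Without peaks that wide in any list 7601 sites remained, and 41.8% of shared CREB1 peaks had FOXA1.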

How the data were processed

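Peak lists (positions and 1 score per peak) and raw read counts per gene were deposited by the authors. The submitters' processing notes list the build hg19 and, with no role given, MACS 1.4.2, Bowtie 1.0.0, HTSeq 0.5.3p9, Bowtie2 2.1.0, edgeR 3.0.6, TopHat2 2.0.8 and CASAVA 1.8. The input control, pooling, peak threshold, gene annotation and strand setting are not given in the sources used here. Each peak's deposited score was set beside those of other lists as a percentile within its list. The exception is the alternative with a minimum score of 100, which applies 1 raw value to all lists.

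Peaks sharing at least 1 bp were paired, and where several overlapped, the best-scoring partner was used. Centres are midpoints of peaks, since the lists give no summit. The 10 bands are equal parts of a whole list by score. Coordinates are 1-based. Gene lists, motif searches and promoter shares planned for these sites were not run, because no hg19 genome or annotation was used here, and no sequence is printed. The knockdown comparisons were not used for the same reason, nor were the authors' tables of them.

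Count columns headed SIC were read as siControl, and most count columns were matched to their header names by position, because the headers mix tabs and spaces. All 12 RNA libraries (2 count columns per sample, taken as 2 libraries, with nothing saying that they are separate cultures) entered 1 fit. Genes passing filterByExpr were tested with edgeR 4.0.16 in R 4.3.3 (TMM scaling, quasi-likelihood test, Benjamini-Hochberg adjustment, threshold 0.05). Lines naming no gene, chiefly the no-feature line with 54.8 to 58.3% of all counts, were left out. CPM values are counts scaled to library size after TMM. All 8 repeated control columns were identical to the first and used once. CREB1 and FOXA1 were the named genes, and the rule for named sites was the 10 with the highest mean percentile. The 6 contrasting and the 3 widest sites were added after their values were seen. Alternatives were another overlap rule, a stricter score, other scaling, no count filter, DESeq2 1.42.0, a block by library number and each library left out. The sites and lists were chosen with earlier results of these data known. The code was tested on simulated data.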

Additional observations from a re-analysis of the deposited data

How the results depend on the processing

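Requiring that other peaks cover at least 50% of the abl CREB1 peak left 6339 sites and a FOXA1 share of 35.3% among shared peaks. With the CREB1 centre inside the other peaks there were 6729 sites and 36.9%, and with a score of at least 100 in all lists 5698 sites and 35.8%. Cutting the FOXA1 list to its 27629 highest-scoring peaks, an alternative chosen after seeing the data, left 3819 sites and 20.7%, because fewer FOXA1 peaks remain. Also chosen afterwards, leaving out peaks wider than 2000 bp or chromosomes X and Y left 7601 and 7685 sites. Over the 11 peak results and 6 settings, 28 of 66 values stayed within the main value's 95% interval or, for counts of sites, within 1.5 times. The Spearman correlation between the CREB1 and FOXA1 scores was -0.19 with 50% coverage, -0.24 with the centre rule, -0.30 with the stricter score and -0.11 with the shorter FOXA1 list. The cause of these shifts was not tested.

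For RNA, the CREB1 and FOXA1 changes kept their direction and side of the threshold in all 9 settings (edgeR or DESeq2 adjusted p of 0.489 to 0.808 for CREB1 and 3.27e-07 to 0.00293 for FOXA1). Leaving out 1 library, with the lone library left assumed to vary like the other groups, gave FOXA1 values of -0.59 to -0.37, CREB1 values of -0.09 to -0.03 and 8306 to 9551 genes passing. Library numbers stand only in the count columns and no label says that they pair samples. No pairing is therefore established. With library number as a replicate block the FOXA1 value was -0.49 (edgeR adjusted p = 0.000158) and 10002 genes passed, against 9896 without it. The deviations of same-numbered siControl libraries had a correlation of 0.37 across genes. The shares planned for gene starts and motifs were not run. Depth limits the peak lists in a way that cannot be read here, since the number of ChIP reads is unknown.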

Other observations

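Most shared sites with FOXA1 stood alone. With a spacing of up to 10 kb between centres the 7774 sites formed 7408 groups, of which 7085 held a single site, 298 held 2 and 20 held 3. The 5 larger groups held 12 sites at chr2:92268881-92324493, 6 at chrY:10019693-10043920, and 5 each at chr10:42383226-42408536, chr16:46385741-46405271 and chr17:22249654-22261729. Their median percentiles were 40.6 to 59.3 for CREB1 in abl, 40.7 to 65.5 for CREB1 in LNCaP and 36.6 to 49.7 for FOXA1, in the middle of each list. Whether these larger groups reflect clustered binding or signal unrelated to the antibodies was not tested.

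At 22 sites on 14 chromosomes the LNCaP CREB1 and FOXA1 peaks each began and ended within 20 bp of the edges of the abl CREB1 peak. These sites had a median CREB1 width of 404 bp and a median FOXA1 percentile of 37.9, against 678.5 bp and 64.2 at the other 7752 sites. The widest of the 22 measured 5972 bp. Whether sites with such matching edges reflect binding of both factors was not tested.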
